A study of Homo sapiens with 6 samples.

Results

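The genes described here are 10 genes of cell-cell adhesion, taken by symbol from the 26899 genes listed in the count table of HK-2 cells. They are the cadherins CDH1, CDH2, CDH3, CDH6 and CDH16, the catenin CTNNB1, the adhesion protein EPCAM, and the tight junction genes TJP1, CLDN1 and OCLN. They were picked by name, with earlier results of these data known, and all 10 were found in the count table. HK-2 is an established human cell line from the proximal tubule of the kidney, transformed with human papillomavirus 16, grown in serum-containing medium and transfected with plasmids by Lipofectamine 2000. RNA sequencing of polyadenylated RNA was available for 3 libraries labelled ANXA2 knockdown and 3 control libraries, numbered 1 to 3 in each group. The control is called WT or wild type in its title and treatment and shCtrl in its description, so whether it carried a control hairpin is not settled by the labels. The labels do not say whether the replicates came from separate cultures, so p-values measure only the spread between these libraries, which may be technical.

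Epithelial cells hold to each other through adherens junctions, tight junctions and desmosomes. In an adherens junction, a classical cadherin binds the same cadherin on the neighbouring cell, and its cytoplasmic tail binds beta-catenin (CTNNB1), which connects through alpha-catenin to actin. Most epithelia use E-cadherin (CDH1), whereas the proximal tubule of the kidney is known for N-cadherin (CDH2) and cadherin-6 (CDH6), so a low CDH1 and a high CDH2 do not by themselves mark a mesenchymal state in this cell type. Cadherin-16 (CDH16) is a kidney cadherin, and P-cadherin (CDH3) is a classical cadherin of other epithelia. Claudins and occludin (OCLN) form the tight junction strands, and the scaffold ZO-1 (TJP1) ties them to actin. The repressors of the SNAI, ZEB and TWIST families are known to lower CDH1 through E-box sequences.

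The libraries held between 24231267 and 34561675 counted reads. ANXA2, the target, had 1598 ± 119 CPM in the controls and 1539 ± 21.3 CPM in the libraries labelled knockdown (SD, n = 3 each), and was not called lower. Its edgeR log2 fold change was -0.05 ± 0.08 (SE), the adjusted p was 0.85, and the 95% interval of the change ran from -14.3% to 8.29%. The groups are therefore called by their labels throughout, and the directions below are not tied to a loss of ANXA2 past the threshold. Of the markers that define a mature proximal tubule, LRP2 had 1 read over all 6 libraries, and the mean FPKM was 0.02 for CUBN, 0.13 for SLC34A1 and 0.01 for both AQP1 and HNF4A. The tubule genes PAX8 (115.2 FPKM) and GGT1 (69.0 FPKM) were present at high levels. The identity as kidney epithelium rested on the latter genes, while the mature transporters and endocytic receptors were at or near 0. The summed FPKM of the proximal tubule list was 205.6 to 256.7 in the controls and 213.6 to 293.0 in the libraries labelled knockdown. Markers of other cells were low, with sums of at most 0.07 for the endothelial list, 0.42 to 0.92 for the distal and collecting duct list, 1.42 to 3.18 for the leukocyte list (CD14 and CD68) and 4.28 to 6.78 for the podocyte list, nearly all of it SYNPO.

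Short windows around the transcription starts (250 bases before to 50 after, RefSeq, GRCh38.p14) were searched for the E-box CAGGTG on either strand (CACCTG on the opposite strand), because SNAI and ZEB repressors bind this hexamer. Of the 10 genes, 5 had windows in the table, 10 windows in all, namely CDH2, CTNNB1, CLDN1, OCLN and TJP1. The E-box occurred in 3 of these 10 windows, both of OCLN and 1 of the 4 of TJP1, compared with 20.6% of all 35116 windows. It was not in the searched windows of CDH2, CTNNB1 and CLDN1. The sites are shown with the E-box in capitals and 12 bases before it, on the strand of the gene, because the repressors described below are known for binding this hexamer.
OCLN, E-box 33 bases before the start at chr5:69492547, shown from chr5:69492502-69492531, plus strand: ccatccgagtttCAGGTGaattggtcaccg
OCLN, E-box 133 bases before the start at chr5:69492790, shown from chr5:69492645-69492674, plus strand: tctaggacgcagCAGGTGggactcgcggcg
OCLN, E-box 35 bases after the start at chr5:69492790, shown from chr5:69492813-69492839, plus strand: tcggtgcggcgtCAGGTGcgcccgcca
TJP1, E-box 88 bases before the start at chr15:29969049, shown from chr15:29969120-29969149, minus strand: gcggccggcgcgCAGGTGgcccggcctcgc
A match describes the letters only and is not evidence of binding. The distances are to the first base of the hexamer. The bases around the 4 hexamers differed from each other.

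HK-2 cells expressed N-cadherin at a high level and almost no E-cadherin. In RNA of whole cultures, fewer cells with a transcript and less of it per cell cannot be told apart. Levels are compared between genes as FPKM, the deposited fragments scaled for transcript length and library depth. CDH2 (ENSG00000170558.8, chromosome 18, 27932879 to 28177946, minus strand, GRCh38) measured 32.21, 37.7 and 32.28 FPKM in control replicates 1, 2 and 3 and 27.73, 27.95 and 29.6 FPKM in the libraries labelled knockdown. CDH1 (ENSG00000039068.18, chromosome 16, 68737292 to 68835537, plus strand) measured 0.02, 0.01 and 0.03 FPKM in the controls and 0.07, 0.02 and 0.11 FPKM in the libraries labelled knockdown. Within a library, CDH2 was 269 to 3770 times CDH1, and the mean level of CDH2 ranked above 92.5% of the genes with FPKM, whereas that of CDH1 ranked above 24.7%. CDH2 took between 55.9% and 70.1% of the summed FPKM of all cadherins examined, and CDH1 took at most 0.22%.

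The other kidney cadherins made up most of the rest. CDH6 (ENSG00000113361.12, chromosome 5, 31193686 to 31329146, plus strand) measured 11.93, 7.68 and 7.57 FPKM in the controls and 7.06, 6.51 and 7.18 FPKM in the libraries labelled knockdown. Control replicate 1 stood above the other 5 libraries, which lay between 6.51 and 7.68 FPKM. CDH16 (ENSG00000166589.12, chromosome 16, 66908122 to 66918917, minus strand) measured 5.69, 3.97 and 4.69 FPKM in the controls and 6.49, 6.1 and 4.79 FPKM in the libraries labelled knockdown. CDH6 exceeded CDH16 in 6 of 6 libraries, by 1.07 to 2.1 times. CDH3 (ENSG00000062038.13, chromosome 16, 68636189 to 68727468, plus strand) was low and scattered, at 0.91, 0.18 and 0.39 FPKM in the controls and 0.38, 0.45 and 0.7 FPKM in the libraries labelled knockdown. Its highest and its lowest value were both controls. Of 22 cadherins looked up, 16 had FPKM values, and 4 of them were above 1 FPKM in every library, namely CDH2, CDH6, CDH16 and CDH24, a less studied type II cadherin with 3.88 to 6.99 FPKM. The other 12 were below 1 FPKM in every library, among them VE-cadherin CDH5 of endothelium (0.02 FPKM on average) and CDH13 (0.01 FPKM).

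The catenin and EPCAM were abundant and steady. CTNNB1 (ENSG00000168036.16, chromosome 3, 41194741 to 41260096, plus strand) measured 47.3, 45.94 and 47.42 FPKM in the controls and 41.85, 43.61 and 44.62 FPKM in the libraries labelled knockdown, so that the groups did not overlap but lay close to each other. EPCAM (ENSG00000119888.10, chromosome 2, 47345158 to 47387601, plus strand), a calcium-independent adhesion protein of simple epithelia, measured 28.35, 27.18 and 32.81 FPKM in the controls and 27.74, 30.23 and 27.22 FPKM in the libraries labelled knockdown, with overlapping groups. EPCAM and CDH2 could not be ordered, since CDH2 was higher in 3 of 6 libraries. An epithelial adhesion gene and the cadherin often read as mesenchymal were present at like levels in the same libraries.

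The tight junction genes ranged from the highest of the 10 to nearly the lowest. CLDN1 (ENSG00000163347.5, chromosome 3, 190305707 to 190322446, minus strand) was the highest of the 10 genes, at 65.67, 137.31 and 124.36 FPKM in the controls and 134.45, 161.61 and 90.89 FPKM in the libraries labelled knockdown. Its lowest libraries were control replicate 1 and knockdown replicate 3, so each group held a low library and the groups overlapped. TJP1 (ENSG00000104067.16, chromosome 15, 29699367 to 29968915, minus strand) measured 9.37, 7.27 and 7.25 FPKM in the controls and 7.17, 6.85 and 5.8 FPKM in the libraries labelled knockdown. OCLN (ENSG00000197822.10, chromosome 5, 69492292 to 69558104, plus strand) was low, at 0.38, 0.59 and 0.45 FPKM in the controls and 0.34, 0.5 and 0.42 FPKM in the libraries labelled knockdown. CLDN1 was 173 to 395 times OCLN within a library, and the OCLN groups overlapped.

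**Figure D1:**
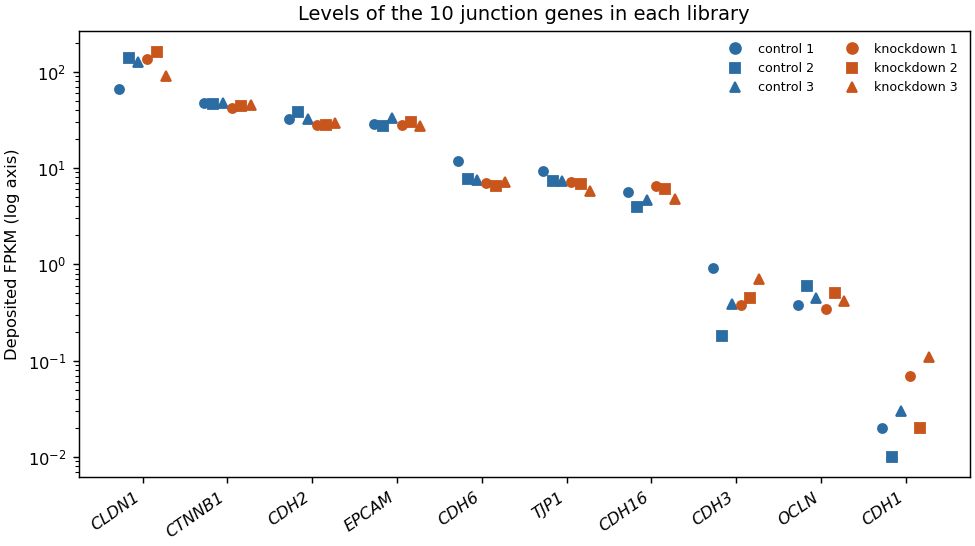
Deposited FPKM (log axis) of the 10 junction genes, ordered by mean level, with 1 symbol for each of the 6 libraries and no averaging. CLDN1 sits highest at 65.67 to 161.61 FPKM and CDH1 lowest at 0.01 to 0.11 FPKM, and the spread between libraries is widest for CDH1 and CDH3.

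By mean FPKM the order was CLDN1 (119.0), CTNNB1 (45.1), CDH2 (31.2), EPCAM (28.9), CDH6 (7.99), TJP1 (7.29), CDH16 (5.29), CDH3 (0.50), OCLN (0.45) and CDH1 (0.04). The ranges over libraries overlapped between CDH2 and EPCAM, between CDH6 and TJP1, between TJP1 and CDH16, and between CDH3 and OCLN, so these neighbours did not differ beyond their spread. TJP1 was nonetheless above CDH16 within each of the 6 libraries, and CDH6 was above TJP1 in 4 of 6. The order depended in part on the transcript length used. When reads were divided by the length of all annotated exons instead, EPCAM moved to rank 2 and CTNNB1 to rank 4, TJP1 and CDH6 changed places, and the other 6 genes kept their rank.

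None of the 10 genes differed between the labels past the threshold of an adjusted p of 0.05. The low-count filter, which asks for a count of about 10 in enough libraries, kept 9 of them (CDH1 was not tested), and edgeR called 0 of 9, as it called 0.0% of all 15299 genes tested, although 8.18% of all genes had an unadjusted p under 0.05. Among the 9 genes, only CDH2 had an unadjusted p under 0.05, on the lower side, where 4.32% of all genes lay. In TMM-scaled CPM (the share of a library's reads, adjusted for composition), CDH2, CDH6 and CTNNB1 were lower in all libraries labelled knockdown than in any control, against 7.7% of all genes tested. No member was higher without overlap, against 7.94% of all genes.

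CDH2 had 152.3, 174.9 and 151.7 CPM in the controls and 132.0, 132.9 and 139.0 CPM in the libraries labelled knockdown. The means were 159.6 ± 13.2 CPM and 134.6 ± 3.83 CPM (SD, n = 3 each). The edgeR log2 fold change was -0.25 ± 0.10 (SE), or -15.7% with a 95% interval from -27.3% to -2.15%, the unadjusted p was 0.03 and the adjusted p was 0.61. The exact two-sided permutation p was 0.1, the smallest that 3 against 3 libraries allow. Leaving out each library in turn kept the estimate between -0.28 and -0.17, the latter without control replicate 2. The antisense RNA ENSG00000227279, which overlaps CDH2, had 19 reads over all libraries beside 27063 reads of CDH2.

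For CDH6 the estimate rested largely on control replicate 1. Its levels were 112.9, 71.25 and 71.17 CPM in the controls and 67.25, 61.87 and 67.5 CPM in the libraries labelled knockdown. The edgeR log2 fold change was -0.38 ± 0.18 (SE) with an adjusted p of 0.61, and it was -0.12 without control replicate 1. A processed pseudogene on the same strand, DUX4L51, shared 8.18% of the 100-base windows of the CDH6 exons and had 81 reads of its own.

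CTNNB1 measured 200.3, 190.7 and 199.4 CPM in the controls and 178.3, 185.6 and 187.6 CPM in the libraries labelled knockdown. Its log2 fold change by edgeR was -0.10 ± 0.08 (SE), the adjusted p was 0.74, and the 95% interval ran from -17.9% to 6.31%. CTNNB1 was the steadiest of the 10 genes, with estimates between -0.12 and -0.08 when any library was left out. The ratio of CDH2 to CTNNB1 in FPKM was 0.68, 0.82 and 0.68 in the controls. It was 0.66, 0.64 and 0.66 in the libraries labelled knockdown, without overlap. The mean difference was -0.14 on the log2 scale (exact two-sided permutation p = 0.1), and control replicate 2 stood apart from the other libraries. How often ratios of other genes separate the labels was not examined. The ratios of CDH2 to EPCAM, CDH2 to CDH16 and CLDN1 to OCLN had overlapping groups (exact two-sided permutation p = 0.3, 0.2 and 0.3).

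The remaining genes had overlapping groups in CPM. In FPKM the TJP1 groups did not overlap, with 7.25 as the lowest control and 7.17 as the highest library labelled knockdown. TJP1 differed by -16.2% in the estimate, with a 95% interval from -32.5% to 4.09% (edgeR, adjusted p = 0.64), and its log2 fold change shrank from -0.25 to -0.11 without control replicate 1. CDH16 differed by 22.5%, with an interval from -8.05% to 63.1% (edgeR, adjusted p = 0.67), and its log2 fold change of 0.29 became 0.17 when control replicate 2 was dropped and 0.44 when control replicate 1 was. CLDN1 differed by 19.8%, with an interval from -21.6% to 83.1% (edgeR, adjusted p = 0.80), and its log2 fold change of 0.26 became 0.00 without control replicate 1 and 0.47 without knockdown replicate 3. The intervals of EPCAM (-18.1% to 15.9%) and OCLN (-41.7% to 37.2%) covered 0, and so did that of CDH3, which ran from -54.2% to 136.0%. OCLN shared 3.6% of its exon windows with the pseudogene OCLNP1, and CDH3 had 471 reads beside 19 of its antisense RNA CDH3-AS1. CDH3 turned direction with the libraries used, and its log2 fold change was -0.35 when control replicate 2 was left out and 0.84 when control replicate 1 was.

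**Figure D2:**
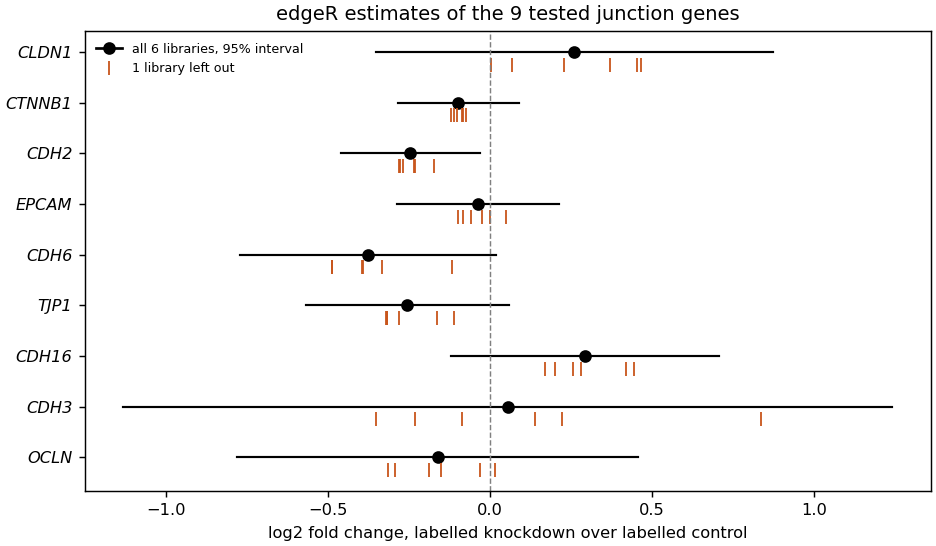
edgeR log2 fold changes of the 9 tested genes, libraries labelled knockdown over libraries labelled control. Black points and lines give the estimate and its 95% interval from all 6 libraries, and orange ticks give the estimate with 1 library left out. Only the interval of CDH2, from -0.46 to -0.03, lies off 0, before adjustment over all genes, and the ticks of CDH3 and CLDN1 spread most.

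CDH1 was measured by too few reads to pass the low-count filter. It had 2, 2 and 5 reads in the controls and 13, 4 and 16 reads in the libraries labelled knockdown, 42 in all. The overlap came from knockdown replicate 2, with 4 reads, and control replicate 3, with 5. Per read counted and after TMM scaling, the libraries labelled knockdown held 3.37 times the CDH1 of the controls, with an exact 95% interval of 1.58 to 8.01 that covers counting error only and not the spread between libraries. Over libraries, the exact two-sided permutation p was 0.2. When the filter was dropped, edgeR gave a log2 fold change of 1.75 ± 1.13 (SE) with an adjusted p of 0.76. The antisense RNA ENSG00000260798, which overlaps CDH1, had 46 reads, more than CDH1 itself, with 8, 6 and 13 in the controls and 9, 9 and 1 in the libraries labelled knockdown. The library was directional, but the counting was done with a strand setting not given in the sources used here, and without strand reads of CDH1 and of its antisense partner cannot be told apart.

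The ratio of CDH2 to CDH1 carries this uncertainty. It was 1610, 3770 and 1080 in the controls and 396, 1400 and 269 in the libraries labelled knockdown. The mean difference was -1.82 on the log2 scale (exact two-sided permutation p = 0.2), and the groups overlapped through knockdown replicate 2, although not once 0.1 FPKM was added to each gene (a difference of -0.70, exact two-sided permutation p = 0.1). The ratio of CDH6 to CDH1 ranged from 65.3 to 768 and differed by -1.92 on the same scale (exact two-sided permutation p = 0.2). CDH1 alone differed by 1.66 in log2 CPM, on its 42 reads.

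The difference between the labels in log2 CPM was smaller than the SD within groups for EPCAM (0.28 times), CDH3 (0.34), OCLN (0.53) and CLDN1 (0.57). For the other genes it was larger, from 1.14 times for CDH16 to 2.54 for CTNNB1 and 2.78 for CDH2. The library farthest from the mean of a gene was control replicate 2 for 4 genes (CDH2, CDH3, CDH16 and OCLN), control replicate 1 for 3 genes (CDH6, TJP1 and CLDN1), control replicate 3 for EPCAM, knockdown replicate 1 for CTNNB1 and knockdown replicate 3 for CDH1. Control replicate 1 and knockdown replicate 3, which were also the libraries with the fewest reads, were the pair with the lowest CLDN1 and the pair with the highest CDH3. They were the lowest pair for 13.9% of all genes tested and the highest pair for 11.8%. Among the 112 tested genes of the 10 examined and the lists below, they were the lowest pair for 20 (17.9%) and the highest for 15 (13.4%). One of the 20 was MMP7, a protease that cuts E-cadherin, which measured 6.51 and 4.43 FPKM in this pair and 21.5 to 30.85 FPKM in the other 4 libraries. This pairing was chosen after its values were seen, it crosses the labels, and the part of depth in it was not tested.

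**Figure D3:**
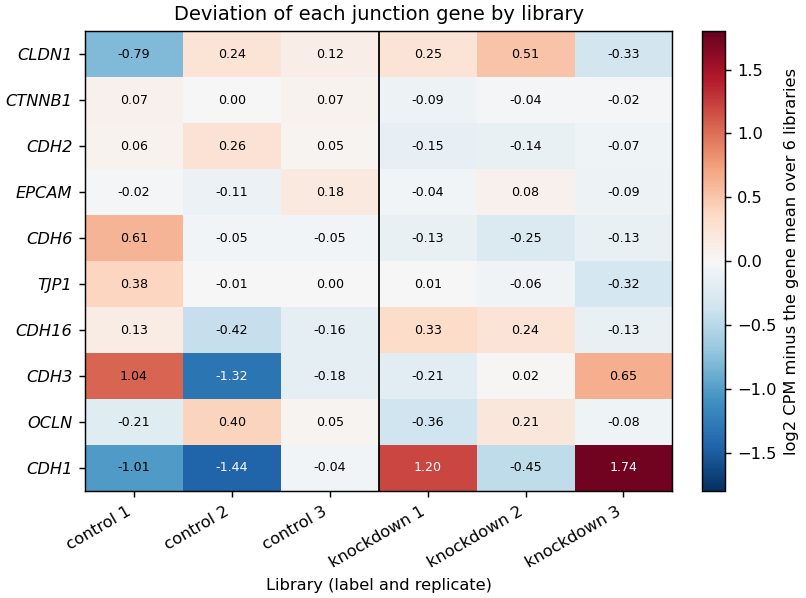
Deviation of each gene from its own mean over the 6 libraries, in log2 CPM, with libraries in columns and a line between the labels. Blue is lower and red is higher than the mean; CDH2 lies above its mean in the 3 controls and below it in the 3 libraries labelled knockdown, whereas CLDN1 and CDH3 show control replicate 1 and knockdown replicate 3 on the same side.

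The wider junction machinery was present and showed no call in any list. The junction lists held 0 genes past an adjusted p of 0.05 by edgeR. Over all genes tested, 8.18% had an unadjusted p under 0.05, the share beside which the counts of each list stand. Of the adherens junction partners, 13 of 17 were tested and 0 had an unadjusted p under 0.05, with a median log2 fold change of -0.04, beside -0.01 over all genes. Alpha-catenin CTNNA1, which links beta-catenin to actin, was the most abundant, at 76.82 to 85.91 FPKM and 1.72 to 1.99 times CTNNB1. The actin anchor VCL had 58.63 to 68.73 FPKM. JUP (plakoglobin), the relative of beta-catenin shared with desmosomes, ranged from 15.55 to 37.91 FPKM, with the lowest values in knockdown replicate 3 and control replicate 1. CTNNBIP1, an inhibitor of beta-catenin, was 5.81, 3.44 and 6.26 FPKM in the controls and 6.2, 6.23 and 6.58 FPKM in the libraries labelled knockdown (edgeR log2 fold change 0.31, adjusted p = 0.69, and 0.08 without control replicate 2).

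Among tight junction genes, 27 of 38 were tested, and 3 were lower and 1 higher at an unadjusted p under 0.05. Over all 15299 genes tested, 661 were lower and 590 higher at this threshold. The median log2 fold change of the list was -0.12, which was 0.07 without control replicate 1. CLDN11, a claudin known from myelin and the testis, was the most abundant claudin, with 125.57, 243.6 and 164.28 FPKM in the controls and 142.53, 155.85 and 117.82 FPKM in the libraries labelled knockdown, and it exceeded CLDN1 in 5 of 6 libraries. CLDN2, the pore-forming claudin of the proximal tubule, measured 6.18 to 12.63 FPKM, and CLDN16, known from the thick ascending limb, measured 4.09 to 7.35 FPKM. CLDN3 had at most 0.39 FPKM and CLDN7 at most 0.12 FPKM. CLDN2, CLDN3, CLDN7 and CLDN16 were picked after their values were seen. The tricellular junction receptor LSR had 23.97, 17.84 and 28.19 FPKM in the controls and 33.53, 32.94 and 31.97 FPKM in the libraries labelled knockdown, without overlap (edgeR log2 fold change 0.51 ± 0.16 (SE), adjusted p = 0.60). Higher without overlap in CPM were 7.94% of all genes tested. LSR passed the threshold when the low-count filter was dropped (edgeR, adjusted p = 0.02). The scaffold TJP3 was low, at 0.07 to 0.69 FPKM, and its log2 fold change of 0.91 ± 0.60 (SE) had an adjusted p of 0.69 by edgeR. The genes lower at an unadjusted p under 0.05 were JAM3, an adhesion receptor, PRKCI, a polarity kinase, and the scaffold MAGI1, with log2 fold changes of -0.40, -0.48 and -0.45 (edgeR, adjusted p between 0.60 and 0.61). JAM3 had -0.25 without knockdown replicate 3, and MAGI1 had -0.28 without control replicate 1.

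The desmosome was represented by 10 tested genes of 15, of which 0 had an unadjusted p under 0.05, with a median log2 fold change of -0.07. PKP4 (13.21 to 19.24 FPKM) and the desmosomal cadherin DSG2 (8.53 to 16.33 FPKM) were the highest. DSC3, another desmosomal cadherin, measured 1.6, 1.8 and 1.57 FPKM in the controls and 1.35, 1.31 and 1.31 FPKM in the libraries labelled knockdown, and had a log2 fold change of -0.31 and an adjusted p of 0.61 by edgeR. PKP3 differed by 0.37 with overlapping groups (edgeR, adjusted p = 0.74). Other cadherins gave 3 tested genes of 17, among them CDH24 with a log2 fold change of 0.29 (edgeR, adjusted p = 0.69) and CDH4 with -0.30 (edgeR, adjusted p = 0.85), and the median was -0.30.

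**Figure D4:**
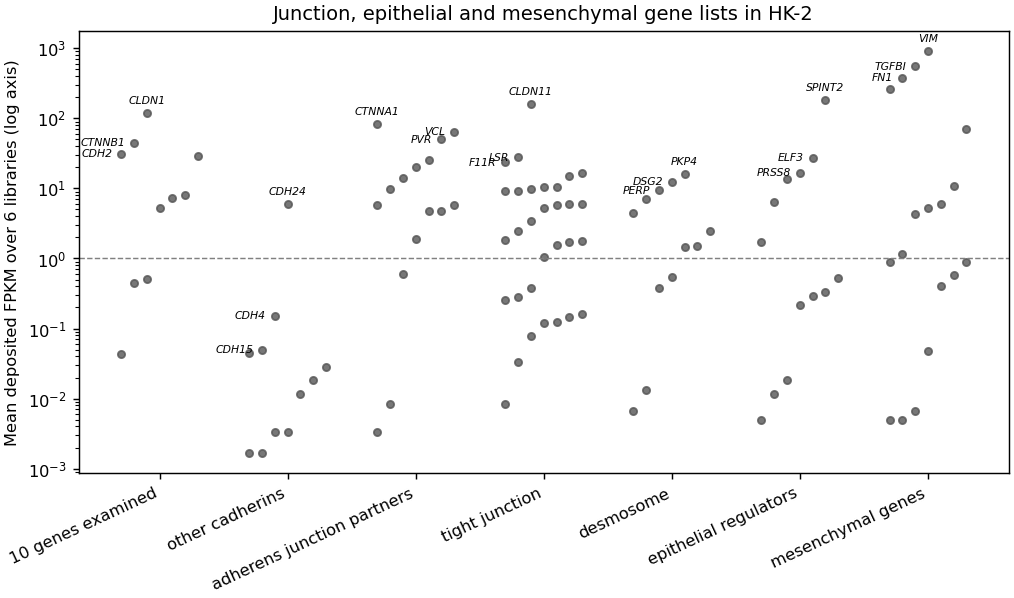
Mean deposited FPKM over the 6 libraries (log axis) of each gene with an FPKM value in the 10 genes examined and 6 lists, 1 point per gene, with the 3 highest of each named and a dashed line at 1 FPKM. Horizontal position within a list carries no meaning. VIM is highest at 903.8 FPKM, and the highest epithelial gene, SPINT2, lies at 182.7 FPKM.

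Both epithelial and mesenchymal genes were highly expressed. SPINT2, an epithelial protease inhibitor, reached 132.96 to 204.83 FPKM, and the epithelial transcription factor ELF3 reached 14.83 to 40.24 FPKM. The epithelial splicing regulator ESRP2 had 5.34 to 7.31 FPKM, whereas ESRP1 had 0.16 to 0.46 FPKM (both chosen after their values were seen). The intermediate filament gene VIM reached 799.93 to 978.56 FPKM, and TGFBI, a matrix protein induced by TGF-beta, reached 465.77 to 606.84 FPKM. ACTA2, the smooth muscle actin of myofibroblasts, stayed at 0.62 to 1.29 FPKM. The fibroblast genes COL3A1 and DCN were at or near 0 (at most 0.02 FPKM in any library), while LUM (7.56 FPKM) and RGS5 (7.41 FPKM) were present, and the summed FPKM of the fibroblast and pericyte list was 14.36 to 19.34 in the controls and 14.27 to 15.58 in the libraries labelled knockdown.

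All 10 tested epithelial regulators had a log2 fold change above 0, with a median of 0.22, as had 7495 of all 15299 genes tested. The count was 10 of 10 under each scaling tried, 9 of 10 without knockdown replicate 2, and 8 of 10 without control replicate 1 or without knockdown replicate 3. Only the mucin MUC1 had an unadjusted p under 0.05, at 1.27, 1.21 and 1.66 FPKM in the controls and 2.0, 2.56 and 1.73 FPKM in the libraries labelled knockdown, without overlap (edgeR log2 fold change 0.62 ± 0.21 (SE), adjusted p = 0.60). Of all genes tested, 8.18% had an unadjusted p under 0.05 and 7.94% were higher without overlap in CPM. ELF3 differed by 0.49 ± 0.29 (SE) with overlapping groups (edgeR, adjusted p = 0.66), and passed the threshold when the low-count filter was dropped (edgeR, adjusted p = 0.01). The summed FPKM of this list was 189.5 to 255.9 in the controls and 264.7 to 278.5 in the libraries labelled knockdown, and SPINT2, whose own groups overlapped, made up most of it. Of 14 tested mesenchymal genes, 9 had a log2 fold change below 0, as had 7804 of all genes tested, and the median was -0.11, or 0.03 without control replicate 3. Their summed FPKM was 2268 to 2309 in the controls and 2066 to 2129 in the libraries labelled knockdown. VIM, TGFBI and FN1 made up most of it, and the groups of VIM and of FN1 overlapped. FN1 measured 323.45, 554.45 and 360.08 FPKM in the controls and 361.22, 408.15 and 260.27 FPKM in the libraries labelled knockdown. TGFBI was lower without overlap, at 536.45, 541.26 and 465.77 FPKM against 570.07, 606.84 and 605.47 FPKM in the controls (edgeR log2 fold change -0.19 ± 0.08 (SE), adjusted p = 0.61), and its estimate was -0.12 without knockdown replicate 3. Lower without overlap in CPM were 7.7% of all genes tested. VIM differed by -0.08 (edgeR, adjusted p = 0.81). ACTA2 went the other way without overlap, at 0.73, 0.62 and 0.83 FPKM in the controls and 1.06, 1.29 and 0.87 FPKM in the libraries labelled knockdown. Its log2 fold change was 0.59 (edgeR, adjusted p = 0.64), and 7.94% of all genes tested were likewise higher without overlap in CPM. The sums were not tested, and no gene of either list passed the threshold.

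Of the repressors known to act on CDH1, 7 were listed for this purpose, and they ranged from well expressed to weak. SNAI1, SNAI2, ZEB1, ZEB2 and TWIST1 were also among the mesenchymal genes above. The counts and medians of these lists therefore rest in part on the same values. TCF3 (E2A) was highest, at 17.25 to 19.73 FPKM, followed by SNAI1 (Snail) at 7.67 to 13.25 FPKM, SNAI2 (Slug) at 4.42 to 6.21 FPKM and TWIST1 at 3.37 to 6.25 FPKM. ZEB1 had 0.31 to 0.81 FPKM, ZEB2 had 0.4 to 1.27 FPKM and TCF4 had 0.11 to 0.22 FPKM. SNAI1 exceeded SNAI2 in 6 of 6 libraries, and ZEB2 exceeded ZEB1 in 6 of 6. TWIST1 measured 6.25, 5.35 and 3.79 FPKM in the controls and 3.37, 3.4 and 3.45 FPKM in the libraries labelled knockdown, so the controls were higher but spread widely (edgeR log2 fold change -0.58 ± 0.21 (SE), adjusted p = 0.61). SNAI2 was also lower without overlap, at 5.86, 6.21 and 5.27 FPKM in the controls and 4.51, 4.42 and 4.92 FPKM in the libraries labelled knockdown (edgeR log2 fold change -0.31 ± 0.14 (SE), adjusted p = 0.61). In CPM, 7.7% of all genes tested were lower without overlap. The log2 fold changes of SNAI1, ZEB1, ZEB2, TCF3 and TCF4 were 0.20, -0.19, 0.33, 0.09 and -0.34, each with overlapping groups (edgeR, adjusted p between 0.76 and 0.90). Of the 7 repressors, 0 passed the threshold and the median was -0.19, which became 0.05 without control replicate 3 and 0.01 without knockdown replicate 3.

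Beta-catenin also carries the Wnt signal into the nucleus, and its regulators and target genes were examined for that reason. Of 18 genes, 16 were tested, 0 had an unadjusted p under 0.05, 8 had a positive and 8 a negative estimate, and the median log2 fold change was -0.00. Among the genes known as Wnt targets, AXIN2 had 0.03 to 0.13 FPKM and LEF1 had 0.24 to 0.74 FPKM, and LGR5 had 1 read. RNF43, NOTUM and SP5 had mean levels of 0.23, 0.64 and 0.47 FPKM. The broadly regulated targets MYC (55.84 to 68.07 FPKM) and CCND1 (33.95 to 42.31 FPKM) were high, with log2 fold changes of 0.14 and 0.05 (edgeR, adjusted p = 0.70 and 0.91). Of the complex that marks beta-catenin for breakdown, AXIN1 had 4.9 to 7.48 FPKM, GSK3B 9.37 to 11.45 FPKM, CSNK1A1 13.4 to 21.22 FPKM and APC 0.17 to 0.47 FPKM. The ligase gene BTRC, which recognises marked beta-catenin, had 2.09 to 2.67 FPKM. AXIN1 was the only gene of this list without overlap, higher in the libraries labelled knockdown, as were 7.94% of all genes tested. The edgeR log2 fold change of AXIN1 was 0.26 (adjusted p = 0.65), and 0.11 without control replicate 2. LEF1 and RNF43 had log2 fold changes of -0.72 and 0.38 (edgeR, adjusted p = 0.64 and 0.77). Of the transcription factors that bind beta-catenin, TCF7L2 was the highest at 4.38 to 6.54 FPKM, and TCF7 and TCF7L1 had means of 1.98 and 1.19 FPKM. The ligase gene ZNRF3, which removes Wnt receptors, had 1.93 to 2.46 FPKM.

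Proteases that cut cadherins were the last list, with 9 of 9 genes tested and a median log2 fold change of -0.12. The protease gene ST14 was also among the epithelial regulators. ADAM10, the main sheddase of E- and N-cadherin, had 4.26, 6.81 and 4.21 FPKM in the controls and 3.71, 3.27 and 3.83 FPKM in the libraries labelled knockdown, without overlap (edgeR log2 fold change -0.48 ± 0.18 (SE), adjusted p = 0.61). Being lower without overlap in CPM held for 7.7% of all genes tested. Control replicate 2 was the highest for ADAM10, as it was for CDH2, and without it the log2 fold change of ADAM10 was -0.22. ADAM15 (47.62 to 58.22 FPKM) and MMP14 (30.19 to 38.59 FPKM) were the most abundant, with log2 fold changes of 0.16 and 0.02 (edgeR, adjusted p = 0.64 and 0.98). MMP9 had 0.59 to 1.24 FPKM and differed by -0.25 (edgeR, adjusted p = 0.85). Of the 9 lists, only the epithelial regulators kept the sign of their median whichever library was left out. These fits share most of their libraries and the lists were chosen with earlier results known, so the kept sign is no independent support. The medians of the other lists lay between -0.30 and 0.00 over all libraries. Each turned positive without at least 1 library, up to 0.10 for the proteases without knockdown replicate 3.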

How the data were processed

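Polyadenylated RNA of HK-2 was sequenced in 6 libraries. The authors deposited raw read counts per gene and FPKM values (2 tables). Per the labels' processing notes, bcl2fastq, TopHat2 and edgeR were used with GRCh38 (versions, counting program, annotation and strand setting: not given in the sources used here). All 6 columns of both tables were used (0 left out).

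The counts went into edgeR 4.0.16 (R 4.3.3; quasi-likelihood test, TMM scaling, default low-count filter with a minimum count of 10 and a total of 15), with all 6 libraries in 1 model without covariates, two-sided tests and Benjamini-Hochberg adjustment over 15299 genes. CPM used the reads of each library in tested genes times the TMM factors (0.987 to 1.02). Single values were compared by exact two-sided permutation tests (scipy 1.17.1) on log2 CPM, or on log2 ratios of FPKM. Levels of different genes were compared in deposited FPKM, and those of the 10 genes also in reads over the length of all annotated exons. Alternatives were other scalings, no filter, DESeq2 1.42.0, limma 3.58.1 (voom on counts, or log2(FPKM + 1) and log2(FPKM + 0.1)), the replicate number as a block and leaving out each library. The scripts were tested on simulated data. Of the gene identifiers, 97.12% were matched to GENCODE 44, from which the coordinates and the shared 100-base windows came.

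The 10 genes and all lists were chosen with earlier results of these data known, so no p was adjusted over a list and no set test was made. Named were the 10 genes, ANXA2, the 2 highest genes by FPKM and the 2 largest fold changes at 1 CPM or more of each list, all CDH1 repressors, all regulators and targets of CTNNB1 tested, and, of the marker lists, the highest and the defining genes. Other names are genes at an unadjusted p under 0.05 or without overlap, or were chosen after their values were seen. Listed genes without values were not analysed here. A few genes of the lists are not reported here by name.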

Additional observations from a re-analysis of the deposited data

How the results depend on the processing

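None of the 9 genes tested passed the threshold in any of the 16 alternatives, where the smallest adjusted p was 0.24. Of their 144 estimates, 139 kept their direction and 5 reversed. These were CDH3, EPCAM and OCLN with a library left out, where the log2 fold changes ranged from -0.35 to 0.84 for CDH3 (-0.09 without control replicate 3 and -0.23 without knockdown replicate 3), from -0.10 to 0.0501 (without control replicate 3) for EPCAM and from -0.31 to 0.01615 (without control replicate 2) for OCLN. The number of genes past an adjusted p of 0.05, 0 of 15299 by edgeR, was 165 without the low-count filter, 32 by DESeq2 (run on all 26899 genes, so tool and filter both differed), 0 by limma-voom, and 0 to 4 with a library left out (4 without knockdown replicate 2). The cause was not tested. Without the filter, 1 tight junction gene (LSR, adjusted p = 0.02) and 1 epithelial regulator (ELF3, adjusted p = 0.01) passed. By reads over exon length, 6 of the 10 genes kept their rank. Adding 0.1 FPKM to each gene reduced the difference in CDH2 over CDH1 from -1.82 to -0.70 and that in CDH6 over CDH1 from -1.92 to -0.79 on the log2 scale, and the exact permutation p went from 0.2 to 0.1, the smallest possible, so the groups no longer overlapped. Deviations from the group means correlated at -0.06, 0.12 and -0.20 between same-numbered libraries, and at -0.23 to 0.22 between those with different numbers. Centring on group means ties these values to each other. They therefore do not settle whether same-numbered libraries were paired. With the replicate block, 0 genes passed and CDH2 had a log2 fold change of -0.24, and the number at an unadjusted p under 0.05 was 1076 instead of 1251. CDH1, with 42 reads, was not tested in the main fit. With a library left out, CDH1 was kept only in the fits without control replicate 1, 2 or 3 or without knockdown replicate 2. All of these held knockdown replicates 1 and 3, the libraries with the most CDH1 reads (13 and 16). In them its log2 fold change was 1.47 to 2.25 (edgeR, adjusted p between 0.48 and 0.92). Without knockdown replicate 1 or 3 CDH1 did not pass the filter, so this range holds no fit that drops a high library and does not show stability. DESeq2 gave 1.79 ± 1.13 (SE) for CDH1. No adjusted p of CDH1 passed the threshold, so no difference is called.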
